A study of Oryza sativa with 25 samples.

Results

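PBZ1 is a rice gene named for its induction by probenazole, a compound applied to protect rice plants from blast disease. It was 1 gene among those of the 57381 probe sets on the array, was measured by 1 probe set (LOC4352491), and was selected on its callus time course, for an early peak after transfer to regeneration medium. It lies on chromosome 12 in the RefSeq gene table. The 25 arrays held 8 groups of Oryza sativa RNA: callus collected after 2, 4, 6 and 8 days on regeneration medium, growing callus, shoot, root and young leaf. Each group had 3 arrays except young leaf, which had 4. Calli came from seeds kept for 3 weeks on MS medium at 30 °C, and the regenerating calli were then moved and cultured further, per the labels' protocols. Shoots came from plants held for 4 weeks at 30 °C in a growth chamber, whereas leaves and roots came from a greenhouse (blades of the leaf numbered 4, and whole roots of plants growing that leaf), so organ and place of growth cannot be told apart for shoot. The labels named no strain, genotype, infection or chemical treatment. Because growing callus was the only callus sampled off regeneration medium, the medium, the transfer and the added culture days cannot be told apart.

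PBZ1 encodes a small intracellular protein of the pathogenesis-related class 10 (PR10), a plant family named for proteins that accumulate after infection. Its transcript is known to accumulate in rice leaves after blast infection and after probenazole. In rice, probenazole acts through salicylate signalling, in which NPR1-type proteins, TGA factors and WRKY factors carry the signal to defence genes, while chitinases and diterpenoid phytoalexins act on the pathogen.

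Levels are given as deposited intensities; the values of every array have their 75th percentile at 1. Array medians lay between 0.220 and 0.355. Correlations between replicate arrays across probe sets were 0.964 or more. The 3 arrays whose labels state an excess of poly(A) control RNA (replicate 2 of growing callus, 2 days and 4 days) had control intensities of 232 to 236, against 0.329 to 2.76 in the other 22. The labels call the samples biological replicates without saying that they came from separate cultures or plants, so p-values measure the spread between these samples. Defining transcripts went with the organ labels: the silicon transporter Lsi1 averaged 149 ± 2.12 in root against 1.77 ± 0.579 in young leaf, and the meristem regulator OSH1 averaged 8.94 ± 1.42 in shoot against 0.127 ± 0.0631 in young leaf (SD). OsrbcS, which encodes the small subunit of Rubisco, averaged 1.48 ± 0.241 in shoot and 0.448 ± 0.0430 in root, against 88.0 ± 16.9 in young leaf. The other leaf markers differed in how high they stood in shoot. The light-harvesting gene CAB2R averaged 86.0 ± 5.09 in shoot against 134 ± 22.8 in young leaf, and the plastocyanin gene PETE 23.5 ± 1.73 against 145 ± 10.8. The leaf marker OsrcaA1 averaged 2.36 ± 0.844 in shoot against 19.4 ± 0.635 in young leaf. Another root marker, the iron transporter OsIRT1, was low in root itself, at 0.856 ± 0.513.

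PBZ1 was high in regenerating callus and in young leaf, and lower in growing callus, root and shoot. Within single arrays, growing callus PBZ1 still stood above 82.9% to 93.6% of the probe sets other than controls. In root it stood above 65.8% to 91.0% of them, and in shoot above 51.2% to 84.1%. The callus levels chose the gene and are given as a description, with no test. In growing callus the 3 arrays read 5.35, 1.93 and 4.71, a mean of 4.00 ± 1.82 (SD, n = 3). After 2 days on regeneration medium they read 55.4, 42 and 45.5, a mean of 47.7 ± 6.95. Even the lowest of these was 7.86 times the highest growing callus array. After 4 days the arrays read 12.2, 44.9 and 21.8, a mean of 26.3 ± 16.8. After 6 days they read 15.9, 22.3 and 35.7, a mean of 24.6 ± 10.1. After 8 days they read 18.7, 41.2 and 24.1, a mean of 28 ± 11.7. No array of the 4 regeneration times fell within the range of growing callus, and the lowest array at 4 days stood 2.29 times above the highest growing callus array.

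As ratios of means to growing callus, PBZ1 stood at 11.9 after 2 days, 6.59 after 4 days, 6.16 after 6 days and 7.01 after 8 days. On the normalized log2 scale these differences were 3.66, 2.63, 2.80 and 2.96. Those values share the growing callus arrays, of which replicate 2 was the lowest and is one of the arrays marked for excess control RNA. Without the 3 marked arrays the log2 difference at 4 days was 1.73, because the highest 4-day array is also marked. Relative to 2 days, the mean was 0.552 times as high after 4 days, 0.517 after 6 days and 0.588 after 8 days. One array at 4 days, at 44.9, lay within the range of the 2-day arrays. The highest 8-day array, at 41.2, lay just under that range, and within it on the normalized log2 scale (5.47, against 5.27 to 5.75 at 2 days). The 2-day group was also the most even, with a coefficient of variation of 14.6% and a highest array 1.32 times the lowest. In all other groups the highest array was at least 2.20 times the lowest.

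**Figure D1:**
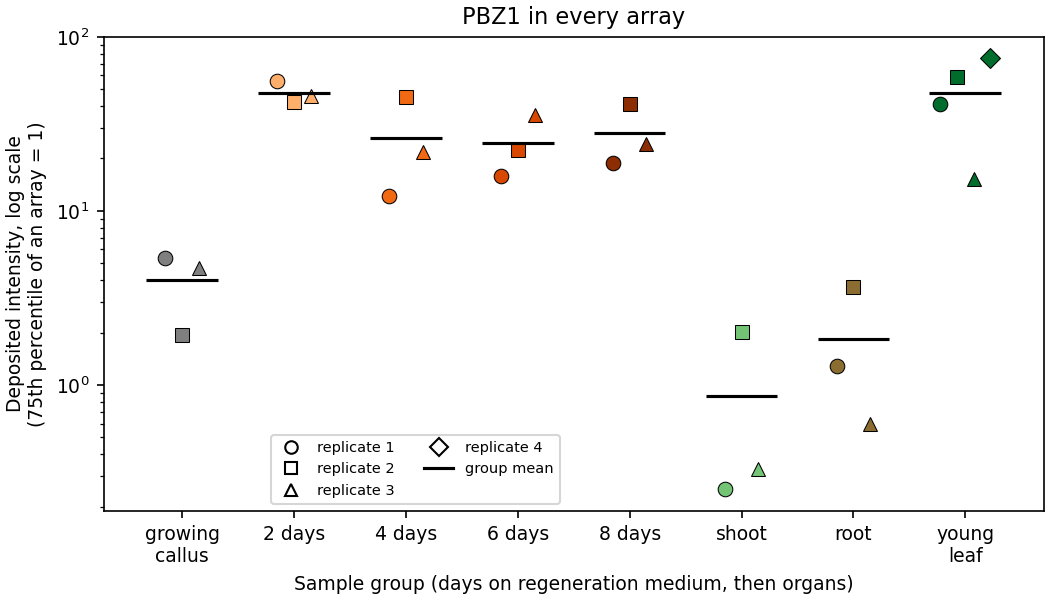
Deposited PBZ1 intensity in each of the 25 arrays, on a log axis where 1 is the 75th percentile of an array; each point is 1 array, its shape gives the replicate number and the bar is the group mean. The 12 regenerating callus arrays and the 4 young leaf arrays all lie above 12, whereas the 9 arrays of growing callus, shoot and root lie below 6.

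The organ levels were not what the gene was picked for and were tested, though PBZ1 was chosen with earlier results of these data known. Shoot arrays read 0.252, 2.01 and 0.328 for PBZ1, a mean of 0.864 ± 0.996 (SD, n = 3). Root arrays read 1.29, 3.64 and 0.600, a mean of 1.85 ± 1.59 (SD, n = 3). Young leaf arrays read 41.0, 58.6, 15.3 and 75.2, a mean of 47.5 ± 25.6 (SD, n = 4). Every young leaf array was above every root and shoot array, while the shoot and root arrays overlapped. Both low shoot arrays were at about the array median, where an intensity may hold little signal above background. In such bulk samples, fewer cells that express the gene and less RNA per cell cannot be told apart.

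PBZ1 fell by 5.94 on the log2 scale in shoot against young leaf (limma, SE 0.635, 95% interval -7.25 to -4.62, adjusted p = 2.10e-08), and the mean intensity was 55.0 times higher in young leaf. With the low shoot arrays near the array median, this size depends on the pseudocount, and the larger one (50% of the median value in place of 10%) gave -5.65. Of the 37212 probe sets tested, 15% were called lower and 16.5% higher in shoot. In root against young leaf it fell by 4.75 (SE 0.635, 95% interval -6.06 to -3.43, adjusted p = 6.96e-07), and young leaf was 25.7 times higher. Called lower in root were 15.5% of the probe sets tested, and called higher 16.6%. Single arrays moved these sizes but not the calls: the shoot difference was -6.80 without shoot replicate 2, and the root difference was -5.47 without root replicate 2 and -4.06 without root replicate 3.

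Between shoot and root, the PBZ1 difference did not pass the test (log2 -1.19, SE 0.679, 95% interval -2.60 to 0.22, adjusted p = 0.141). That comparison called 13.5% of probe sets lower in shoot and 15.5% higher. On the deposited scale, without quantile normalization, 41.8% of those calls were higher in shoot, against 53.4% on the normalized scale, and the median of all probe sets tested lay at -0.23 instead of 0.05. The PBZ1 result turned on single arrays. Without shoot replicate 2 the difference was -2.05 (adjusted p = 0.0106), and without root replicate 3 it was -1.88 (adjusted p = 0.0286), both past the threshold, whereas without root replicate 2 it was -0.47 (adjusted p = 0.601). With arrays weighted by their quality the difference was -1.72 (adjusted p = 0.0162). Replicate 2 was the highest PBZ1 array in shoot, in root, at 4 days and at 8 days, in between at 6 days and in young leaf, and the lowest in growing callus and at 2 days.

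In order of mean, 2 days came first, followed by young leaf, 8 days, 4 days, 6 days, growing callus, root and shoot. Of the 7 steps in this order, only the one between 6 days and growing callus separated groups whose arrays did not overlap. The means of 2 days and young leaf stood in a ratio of 1.0, but the spread differed, with a coefficient of variation of 14.6% at 2 days and 54.0% in young leaf. The spread was widest in shoot, where it reached 115%. The deviations of PBZ1 from its group means, over the 25 arrays, correlated at 0.385 with the 3' to 5' signal ratio of the actin control probe sets, at 0.0106 with that of the GAPDH control, and at -0.0742 with that of the cyclophilin control. With the poly(A) control intensity the correlation was -0.0586, and with the array median 0.133. The part of RNA quality in the PBZ1 spread was not tested.

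In plant genomes PR10 genes often stand in clusters, so the genes on either side of PBZ1 were examined. Among the 5 nearest genes on each side in the RefSeq order, 7 had a probe set, and the annotation named none of these except OsCslD4 (LOC107276048), a cellulose synthase-like gene that follows PBZ1 directly. LOC4352487 and LOC4352488 lie 5 and 3 genes before PBZ1, and LOC4352490 directly before it. No other gene of the table carried a PR10 name, so relatives of PBZ1 were not counted as a family.

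LOC4352487 read 7.78, 4.75 and 8.24 after 2 days, against 1.25, 2.05 and 1.90 in growing callus, with no overlap. It rose by 1.98 on the log2 scale (limma, SE 0.639, adjusted p = 0.0471), just inside the threshold, in a comparison that called 1.65% of probe sets higher and 2.43% lower. The call was lost when any single array of either group was left out, with adjusted p between 0.0536 and 0.146, and also without the 3 marked arrays (adjusted p = 0.0810). At 4 days its arrays read 1.44, 4.49 and 2.84. After 6 days they read 2.35, 3.65 and 4.43, and after 8 days 3.56, 6.37 and 4.45. None of these later differences was called (log2 0.64, 1.05 and 1.52, adjusted p = 0.598, 0.322 and 0.0968).

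LOC4352488 read 2.98, 1.99 and 3.59 after 2 days, against 0.706, 1.57 and 1.14 in growing callus, and was not called (log2 1.32, adjusted p = 0.153). It read 1.95, 4.92 and 3.54 after 8 days, and there it rose by 1.60 on the log2 scale (SE 0.567, adjusted p = 0.0475). The comparison at 8 days called 5.06% of probe sets higher and 2.79% lower. That call was lost without any one of the growing callus arrays, without 8-day replicate 2 or without 8-day replicate 3, with adjusted p between 0.0520 and 0.161. At 4 and 6 days the log2 differences of LOC4352488 were 0.02 and 0.35 (adjusted p = 0.988 and 0.766).

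In the organs both genes were low in shoot, as PBZ1 was, while neither was called in root against young leaf. LOC4352487 read 0.239, 0.529 and 0.162 in shoot, against 3.18, 5.16, 0.660 and 8.15 in young leaf, and it fell by 3.17 (adjusted p = 7.53e-05). In root it read 2.32, 7.30 and 1.27, which overlapped young leaf and did not pass the test (log2 -0.03, adjusted p = 0.968). Its shoot level was below root as well (log2 -3.13, adjusted p = 2.05e-04). Without young leaf replicate 3 the shoot to young leaf difference was -3.86, and without root replicate 2 the shoot to root difference was -2.46.

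LOC4352488 read 0.0581, 0.142 and 0.107 in shoot, against 3.46, 5.45, 1.09 and 7.90 in young leaf, and it fell by 4.69 (adjusted p = 5.29e-08). In root it read 1.67, 3.17 and 0.931, above shoot in every array, so that shoot was lower by 3.76 on the log2 scale (adjusted p = 5.09e-06). Root against young leaf was not called (log2 -0.93, adjusted p = 0.138), though it passed without root replicate 2 (-1.39, adjusted p = 0.0463) or without young leaf replicate 3 (-1.47, adjusted p = 0.0116). Shoot levels of LOC4352488 were below the array median, and with the larger pseudocount its shoot differences were -3.86 from young leaf and -2.97 from root.

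Within groups, the arrays that were high for PBZ1 were mostly the arrays that were high for these genes. The correlation of deviations below was not among the planned comparisons, and the neighbours were chosen with earlier results of these data known. LOC4352488 ordered the arrays as PBZ1 did in 6 of 8 groups, and LOC4352487 in 5 of 8. Over 25 arrays, the log2 deviations from group means of PBZ1 and LOC4352487 correlated at r = 0.815 (permutation of arrays within groups, 100000 resamples, two-sided p = 1.50e-04, adjusted over 7 neighbours 0.00105). The rank correlation was 0.818 (permutation p = 1.90e-04, adjusted 0.00133). For LOC4352488 the correlation was 0.715 (permutation p = 8.70e-04, adjusted 0.00304), with a rank correlation of 0.711 (permutation p = 0.00169, adjusted 0.00591).

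Leaving out shoot replicate 2 and root replicate 2, the arrays farthest from the median PBZ1 deviation, gave 0.788 for LOC4352487 and 0.727 for LOC4352488. Within the 15 callus arrays the correlations were 0.612 and 0.524, and within the 10 organ arrays 0.879 and 0.822. Both genes departed from PBZ1 in growing callus, where LOC4352488 was highest in replicate 2, the lowest array for PBZ1. Among all other probe sets tested, the correlation of LOC4352487 with PBZ1 ranked 2 and that of LOC4352488 ranked 25. Over those probe sets the median correlation was -0.00979, the 95th percentile 0.419 and the 99th percentile 0.568. Some genes of the defence lists described below also passed that 99th percentile, so such values were not particular to neighbours. These were CYP99A2 at 0.643, OsChia1a at 0.632, OsMAS at 0.625 and Cht10 at 0.593. Other list genes went the other way, down to -0.400 for NH4. The deviations of LOC4352487 and LOC4352488 correlated with each other at 0.914. The probe sequences were not analysed here, so whether these probe sets partly detect the same transcripts was not tested.

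**Figure D2:**
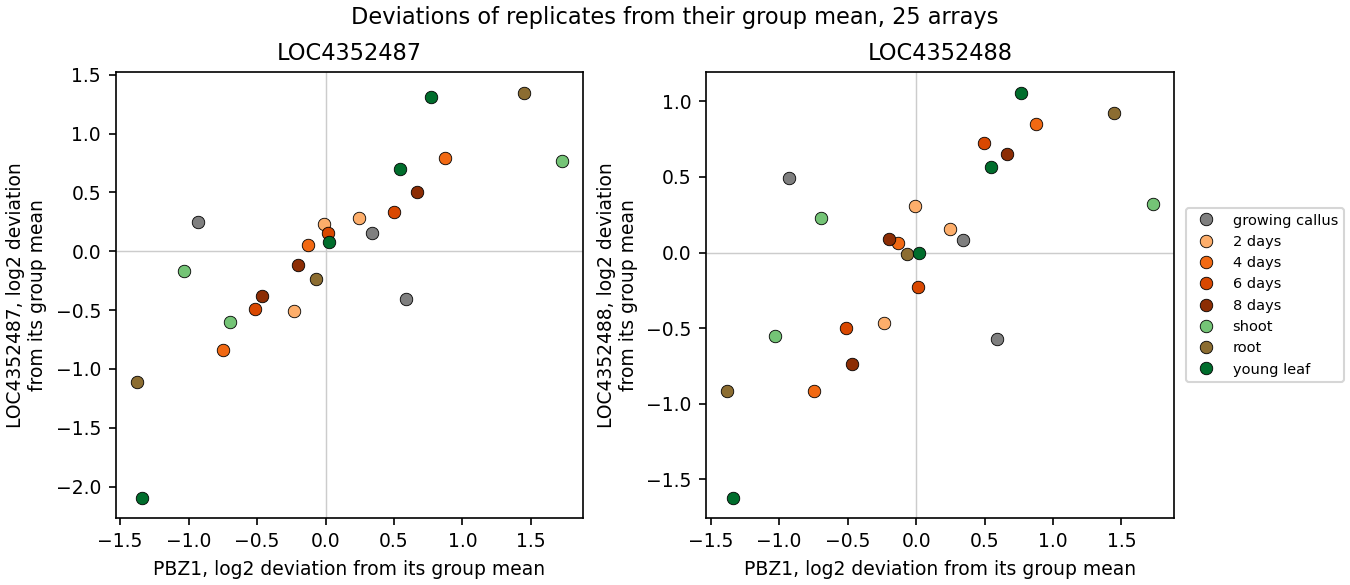
Log2 deviation of each of the 25 arrays from its group mean, PBZ1 on the horizontal axis and LOC4352487 (left) or LOC4352488 (right) on the vertical axis, coloured by group. Points run from lower left to upper right (r = 0.815 and 0.715), and the growing callus arrays run against that direction.

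Of the other 5 neighbours none passed this test. Their deviations correlated with those of PBZ1 between -0.108 and 0.303 (permutation within groups, adjusted p of 0.559 or more). Within the 15 callus arrays alone, however, OsCslD4 had -0.769, the largest of the 7 in size, and LOC4352494 had 0.551, above LOC4352488; these values carry no test. LOC4352490, which directly precedes PBZ1, read between 0.282 and 0.425 in growing callus and between 0.303 and 0.365 after 2 days, and was called at no callus time. It was lower in shoot than in young leaf by 1.14 (adjusted p = 1.22e-06). OsCslD4 went the other way from PBZ1 in the organs: it was higher in shoot than in young leaf by 1.68 (adjusted p = 2.29e-09) and than in root by 1.56 (adjusted p = 3.81e-08). Its probe set has the suffix of sets that can detect related transcripts. None of the 7 neighbours was called at 4 days, which had 2.14% of probe sets called higher and 3.1% lower, or at 6 days, which had 3.71% called higher and 2.38% lower. By the same limma test, 4 neighbours reached an unadjusted p under 0.05 in either direction after 2 days, and 3 did so after 8 days. For the times between, 2 reached it after 4 days and 0 after 6 days. How many of all probe sets pass this unadjusted limit was not computed, so these counts have no background to be read against.

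**Figure D3:**
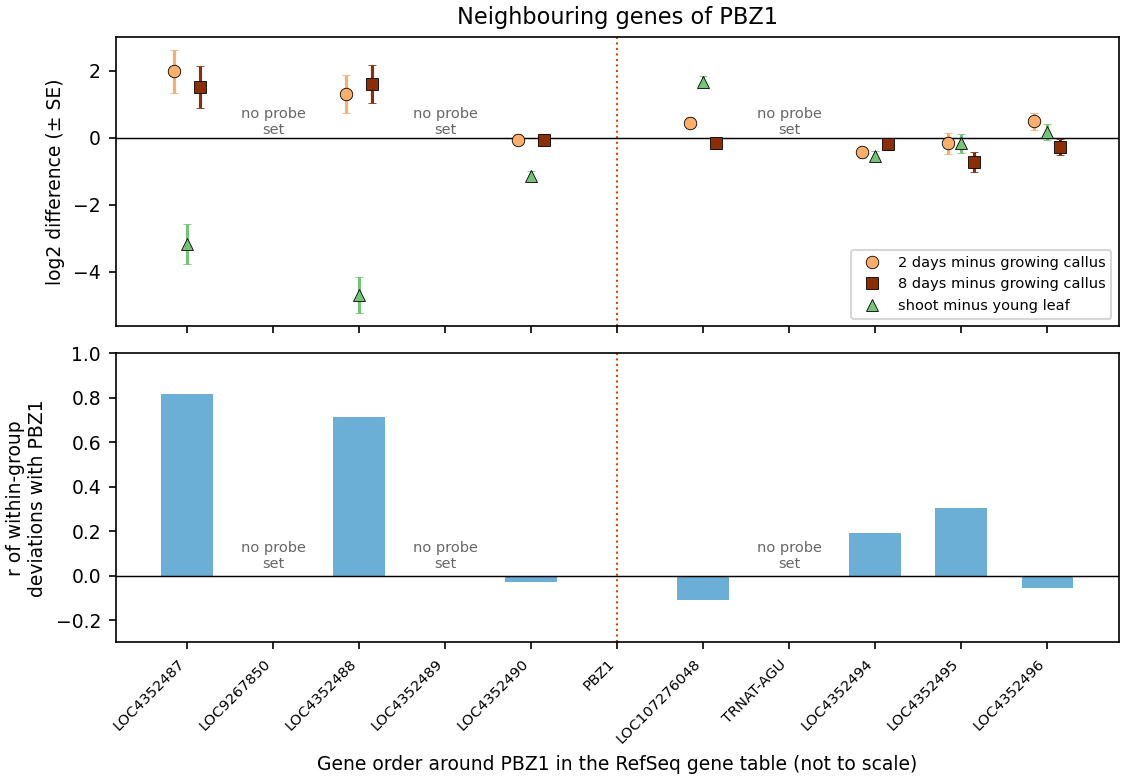
The 10 genes around PBZ1 in RefSeq order, not to scale. Upper panel: log2 difference with SE for 2 days minus growing callus, 8 days minus growing callus and shoot minus young leaf; lower panel: correlation with PBZ1 of the deviations from group means, where only LOC4352487 (0.815) and LOC4352488 (0.715) stand above 0.4.

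Counts of called genes in the defence lists are read against the shares of all probe sets tested, which were 1.65% higher and 2.43% lower at 2 days, 2.14% and 3.1% at 4 days, 3.71% and 2.38% at 6 days, and 5.06% and 2.79% at 8 days. Of 19 tested genes of salicylate and probenazole signalling, 0 were called at 2 days in either direction. By the same limma test 6 had an unadjusted p under 0.05. The share of all probe sets under that unadjusted limit was not computed, here or for the lists below. Log2 differences of the 19 genes ran from -1.27 to 0.60 with a median of -0.20. The median over all probe sets tested was 0.01. At 4 days 0 rose and 2 fell, at 6 days 1 rose and 0 fell, and at 8 days 2 rose and 0 fell. At the shares of all probe sets, 1 gene or fewer of a list of this size would be called in each direction, so these counts say little about the pathway, and 0 calls in a shorter list less still. Both genes called at 8 days encode relatives of NPR1, the salicylate-binding coactivator known from Arabidopsis. NH5 (LOC4351457) had 0.210, 0.279 and 0.350 at 8 days, against 0.0714, 0.0891 and 0.0807 in growing callus (log2 1.73, SE 0.234, adjusted p = 1.12e-05). The growing callus levels are below the array medians and the 8-day levels near them, and the larger pseudocount gave 1.08. NH5 was highest in shoot, where PBZ1 was lowest, and its shoot arrays read 3.69, 2.05 and 3.01. NH3 (LOC4333666) averaged 0.842 ± 0.163 at 8 days against 0.381 ± 0.0730 in growing callus (log2 1.06, adjusted p = 0.0194), a call lost without growing callus replicate 3 or without 8-day replicate 3 (adjusted p = 0.0915 and 0.0909). NH1 (LOC4327315), another NPR1-type gene of the list, was lower at 8 days, at 1.72 ± 0.345 against 3.65 ± 1.39 (limma, log2 -0.96, adjusted p = 0.0202). NH4 (LOC4325758) was higher by 0.71 on the log2 scale (limma, adjusted p = 0.0325). Its means, 0.155 ± 0.0398 at 8 days and 0.110 ± 0.00742 in growing callus, both lay below the array medians. Neither the NH1 nor the NH4 change reached 2-fold. None of the 6 genes with a WRKY name, 3 of which are also in the salicylate list, was called at any of the 4 times. WRKY45, which was sought for the salicylate list, was not found by name and was not assessed. At an unadjusted p under 0.05 by limma, 2 of them passed after 4 days, 1 after 8 days and 0 at the other two times, and the list medians from 2 to 8 days were -0.17, -0.51, -0.09 and -0.10.

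Several chitinases, enzymes that hydrolyse the chitin of fungal walls, were lower in regenerating callus, where PBZ1 was high. Of 12 tested genes of the chitinase and pathogenesis-related list, 6 were called lower and 0 higher at 2 days, with a median of -0.68. These 6 compare with 2.43% of all probe sets called lower. None of the 12 carried a name of a pathogenesis-related class other than chitinases, so such classes were not assessed. At 4 days the counts were 5 lower and 0 higher, at 6 days 5 lower and 1 higher, and at 8 days 5 lower and 2 higher, with medians of -1.05, -0.33 and -0.51, beside 3.1%, 2.38% and 2.79% of all probe sets called lower. Cht10 (LOC4325148) averaged 1.55 ± 0.485 at 2 days and 1.08 ± 0.380 at 8 days, against 7.82 ± 2.04 in growing callus (SD, n = 3 each). It fell by 2.27 at 2 days (adjusted p = 4.98e-05) and by 2.78 at 8 days (adjusted p = 1.21e-06). Cht3 (LOC4342114) fell by 2.07 at 2 days (adjusted p = 2.96e-04) and by 2.12 at 8 days (adjusted p = 8.84e-05), as read by a probe set that can also detect related transcripts. Chib3H-a (LOC4351194) averaged 10.3 ± 2.89 at 2 days and 4.44 ± 1.62 at 8 days, against 38.6 ± 20.3 in growing callus. Its log2 differences were -1.78 (adjusted p = 0.00333) and -2.95 (adjusted p = 6.59e-06).

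Diterpenoid phytoalexin genes included 3 that rose at 2 days among 15 tested, with 0 lower and a median of 0.41, where 1.65% of all probe sets were called higher. The tested genes included ks1, a kaurene synthase gene of gibberellin synthesis, which was called at no callus time. OsCPS2 (CPS2, LOC9266189), the ent-copalyl diphosphate synthase of phytoalexin synthesis, averaged 0.406 ± 0.193 at 2 days, against 0.133 ± 0.0369 in growing callus (log2 1.33, SE 0.291, adjusted p = 0.00391). CYP701A8 (LOC4341343), a cytochrome P450 that oxidizes diterpene precursors, averaged 0.440 ± 0.140 at 2 days against 0.149 ± 0.0675 in growing callus (log2 1.47, SE 0.331, adjusted p = 0.00468). OsMAS (LOC4335093), a momilactone A synthase, averaged 0.542 ± 0.0372 at 2 days against 0.240 ± 0.0586 in growing callus (log2 1.15, adjusted p = 0.0328). The OsMAS call was lost without any one of the 2-day arrays, without growing callus replicate 1 and without growing callus replicate 2 (adjusted p between 0.0583 and 0.138). The CPS2 fold dropped under 2 without 2-day replicate 3 (log2 0.97). Growing callus levels of CPS2 and CYP701A8 were below the array medians and those of OsMAS near them, and with the larger pseudocount the differences were 0.94 for CPS2 and 0.89 for OsMAS, both under 2-fold, and 1.03 for CYP701A8. At 4 and 6 days 0 were called in either direction and 0 had an unadjusted p under 0.05 by limma, with list medians of 0.09 and 0.10. The list median at 8 days, 0.43, was close to that at 2 days. At 8 days only CYP701A8 was called (log2 1.48, adjusted p = 0.00237). CPS2 was higher at 8 days too but short of 2-fold (limma, log2 0.92, adjusted p = 0.0262).

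**Figure D4:**
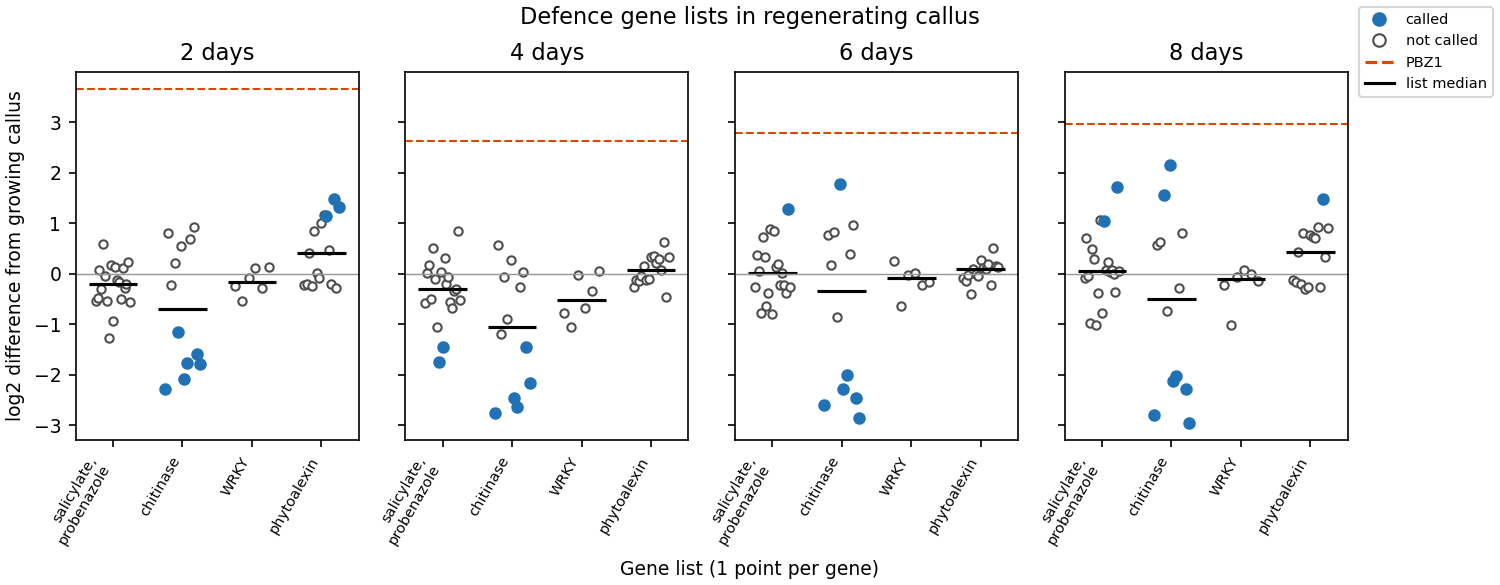
Log2 difference from growing callus of each tested gene of 4 defence lists at 2, 4, 6 and 8 days, filled where called; the bar is the list median and the dashed line is PBZ1. The PBZ1 line, between 2.63 and 3.66, lies above every gene of the lists at every time.

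In the organs, most phytoalexin genes tested were lower in shoot than in young leaf, and fewer were lower in root. This was counted after their callus values had been seen. In shoot against young leaf 12 of 15 were lower and 0 higher, with a median of -1.53 beside -0.05 over all probe sets tested, of which 15% were called lower. Of 17 genes of the list with a probe set, 15 passed the filter, which the 4 young leaf arrays alone can satisfy. CYP71Z6 averaged 3.45 in young leaf but 0.140 in shoot and 0.113 in root, under the array medians. The counts against young leaf can therefore favour genes that are high there. With the larger pseudocount 9 were lower. In root against young leaf 7 were lower and 0 higher, beside 15.5% of all probe sets called lower, and in shoot against root 5 were lower and 1 higher. CPS2 averaged 0.0997 ± 0.0409 in shoot and 0.183 ± 0.0440 in root, against 3.26 ± 0.325 in young leaf (log2 -4.56 and -4.27, adjusted p = 7.26e-13 and 2.18e-12). CYP701A8 averaged 0.144 ± 0.0227 in shoot and 0.975 ± 0.260 in root, against 3.51 ± 0.788 in young leaf (log2 -4.17 and -1.78, adjusted p = 3.90e-11 and 2.69e-05). With the larger pseudocount the 3 differences beyond 4 shrank to -3.73, -3.57 and -3.54. OsMAS was lower in shoot than in young leaf by 1.41 (adjusted p = 6.35e-04) and close to it in root (log2 0.07, adjusted p = 0.861).

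Genes whose 8 group means followed those of PBZ1 most closely were ranked by Pearson correlation on the normalized log2 scale. These correlations describe 8 points that include the callus groups and carry no test. Among named genes, the highest were OsTLP11 (LOC4344218), a tubby-like gene, at 0.947, HDH (LOC4324282), histidinol dehydrogenase of histidine synthesis, at 0.943, and the MYB factor gene MYBS2 at 0.916, whose second probe set reached 0.877. CRYD (LOC4341749), a DASH-type cryptochrome, followed at 0.915, with the inositol phosphate kinase gene OsITPK3 (LOC4333967) at 0.909 and the clock gene OsPCL1 (LOC4326391) at 0.900. BASS5 (LOC4347609), a transporter of the bile acid sodium symporter family, had 0.896, the heat shock factor gene OsHsf-03 (LOC4324158) 0.888 and the tocopherol synthesis gene OsVTE2-1 (LOC4341727) 0.885. Of genes known by locus number alone, LOC4325073 had 0.991, LOC4328488 0.968 and LOC4345883 0.964.

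Likeness of shape did not mean likeness of size. OsTLP11 averaged 1.93 ± 0.217 at 2 days against 1.54 ± 0.133 in growing callus, and its difference of 0.31 was not called. HDH averaged 5.23 ± 0.521 at 2 days against 4.52 ± 0.573 in growing callus, a difference of 0.25, and LOC4325073 averaged 8.25 ± 1.08 against 6.57 ± 0.835, a difference of 0.35. Only CRYD and OsPCL1 of these genes were called at 2 days, with log2 differences of 1.0 and 1.76. OsPCL1 differed from PBZ1 in where it was highest, at 38.6 ± 8.52 in young leaf against 5.95 ± 0.740 at 2 days. The choice of measure mattered, since 7 of the 10 named probe sets were among the first 10 when 25 arrays were used instead of 8 means, and 3 of 10 with rank correlation. Within groups these genes did not follow PBZ1 as LOC4352487 did: LOC4325073 had a correlation of deviations of 0.553, HDH of -0.359 and LOC4328488 of -0.475.

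**Figure D5:**
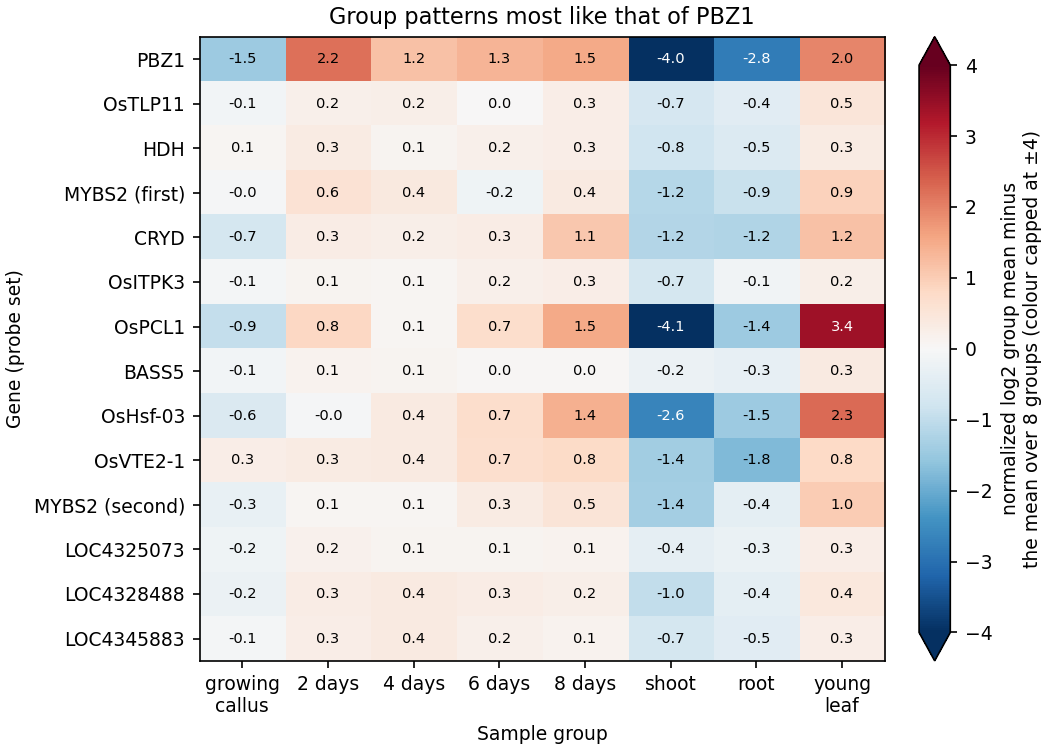
Normalized log2 group means, each minus the mean over the 8 groups, for PBZ1, the 10 named probe sets and the 3 loci with the most similar pattern; red is above and blue below the gene's mean, with the value in each cell. All lie below their own mean in shoot and root, as PBZ1 does, while most have much smaller differences between the callus groups.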

How the data were processed

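RNA of 25 samples was hybridized to Affymetrix Rice Genome Arrays; per the labels' protocols, 500 ng went into each labelling. The deposited table holds a linear intensity for each probe set in each array. The submitters' processing notes name GCOS 1.3; the summary, background and scaling steps are not given in the sources used here, and no detection call was used. From the deposited intensity, 187 control probe sets were left out, 0.0274 (10% of the median value) was added, and the log2 taken. Because array medians differed by a ratio of 1.61, over the limit of 1.5, the log2 values were quantile normalized. A probe set was tested where 3 or more arrays had it above their median (37212 of 57194). One model was fitted to all arrays, with group means as its terms, in limma 3.58.1 under R 4.3.3 (17 residual and 5.40 prior degrees of freedom). A call needed a Benjamini-Hochberg adjusted p under 0.05 over all probe sets tested and a change of at least 2-fold.

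PBZ1, its neighbours and the gene lists were chosen with earlier results of these data known. Lists were matched by symbol or synonym in the RefSeq table (assembly ASM3414082v1, used for names and gene order only), with the probe set of highest mean for each gene; 13 tubby-like genes and 1 NPR1 gene that matched a pathogenesis-related pattern through a synonym were dropped. Named genes were PBZ1, its measured neighbours, up to 3 called genes of each list with the smallest adjusted p at 2 days and at 8 days, and the 10 named and 3 unnamed probe sets most like PBZ1; organ values of the phytoalexin genes were added after seeing the data. The permutation test of neighbour deviations was not among the planned comparisons. The number of arrays limits the precision. Alternatives were another pseudocount, no quantile normalization, no filter, array weights, the 2 compared groups alone, a replicate block, and leaving out single arrays or the 3 arrays with excess poly(A) controls. A search for promoter motifs was not made here.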

Additional observations from a re-analysis of the deposited data

Results flagged for a closer look

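In young leaf, the only group with 4 arrays, replicate 1 stood apart from the others for LOC4352494 and LOC4352495, which follow PBZ1 in gene order. LOC4352494 read 1.89 there, against 1.65 to 1.69 in the other arrays, and LOC4352495 read 5.34, against 2.77 to 3.13. In both, the gap to the nearest array took up more of the group's range than Dixon's 95% limit for 4 values allows (0.854 and 0.862). Chance passes this limit in about 1 of 20 groups, and 29 probe sets were checked. PBZ1 itself, with a gap share of 0.429 for its low array in young leaf, stayed under the limit.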

How the results depend on the processing

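Of 641 values of 50 results under other settings, 568 kept their direction and their side of the threshold. PBZ1 in shoot and in root against young leaf kept its call throughout (log2 -6.80 to -5.42 and -5.47 to -4.06). Its shoot to root difference was past the threshold with array weights (-1.72), and leaving out single arrays gave -2.05 to -0.47. List genes called at 2 days numbered 5 to 9 without single arrays, against 9. Neighbours called at 2 days were 1 in the reported fit, 0 without quantile normalization, without the filter and without the 3 marked arrays, 0 without any one array, and 2 in a fit of the 2 groups alone. At 6 days that fit called 1. At 8 days, against 1 reported, 0 were called without the filter and without the marked arrays, 2 in the fit of 2 groups, and 0 to 1 without single arrays. Replicate numbers were not treated as pairs in the reported fit. Over 84 pairs of same-numbered arrays, callus and organs pooled, deviations correlated between -0.277 and 0.390, with a median of 0.0139 and 17 over 0.1. Pairing among the callus times alone was not tested, and replicate 2 of growing callus, 2 days and 4 days shared the excess control RNA. A replicate block gave 2 neighbours called at 8 days and turned LOC4352487 in root against young leaf to 0.41 (-0.73 to 0.52 without single arrays). LOC4352488 turned to -0.16 at 4 days without the marked arrays and ran from -0.40 to 0.48 without single arrays; at 6 days it ran from -0.015 to 0.60. OsMAS in root against young leaf turned to -0.035 with array weights and ran from -0.32 to 0.36 without single arrays. The causes were not tested. Without quantile normalization the median over all probe sets lay at -0.17 at 8 days, -0.17 in shoot and 0.19 in root against young leaf. Levels near the array median carry little signal over background, which limits the values in shoot.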
